A study of Mus musculus with 3 samples.

Results

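The replication-dependent histone genes were taken as the GENCODE protein-coding genes of the mouse whose symbol starts with Hist1h, Hist2h, Hist3h or Hist4h. The rule found 67 genes among 21938 protein-coding genes: 6 for the linker histone H1, 18 for H2A, 18 for H2B, 12 for H3 and 13 for H4. Of these, 54 lie on chromosome 13, 10 on chromosome 3, 2 on chromosome 11 and 1 on chromosome 6. The series profiled open chromatin by DNase-seq, in which the nuclease DNase I cuts DNA where it is exposed, in MEL cells, a mouse erythroleukaemia line. All 3 libraries came from cells kept with zinc dichloride for 24 hours, at a dose labelled 125 in a unit whose prefix cannot be read. No untreated library was analysed here, so nothing below compares treated with untreated cells. The libraries make up biological replicate 1 (2 libraries in 1 deposited list) and biological replicate 2 (1 library).

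Nucleosomes are built from H2A-H2B dimers and H3-H4 dimers, and H1 binds the DNA between them. Cells need large amounts of these proteins while DNA is copied, and supply them from many near-identical, intron-poor genes whose transcripts end in a stem-loop instead of a poly(A) tail. The clustered genes gather in the nucleus at the histone locus body, where NPAT and the processing factors of their transcripts are concentrated. Many H2A and H2B genes lie head to head and share 1 stretch of upstream sequence.

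Replicate 1 held 304049 peaks and replicate 2 held 106591. Every peak is 150 bp wide and carries the authors' score, a whole number whose highest value was 150 in replicate 1 and 145 in replicate 2. What the score counts is unstated in the labels and files, so it ranks peaks within 1 list only. The median peak score was 62 in replicate 1 and 30 in replicate 2, and scores of the 2 lists are not on a common scale. Hotspots, stretches of varied width enriched in cuts, numbered 258249 and 82250. The lists give no read counts, so depth is unknown, and with 1 list per replicate there is no standard deviation and no test. A check of the cell type found a promoter peak at 10 of 10 erythroid marker genes in replicate 1 and at 6 of 10 in replicate 2 (Slc4a1, Alas2, Hbb-bt and Hbb-bs had none there). Of all protein-coding genes, 63.6% and 49.0% were called, so the erythroid count of replicate 2 was not far from that share. Promoter peaks were rarer at marker genes of liver (1 of 5 in each replicate), T cells (2 and 1 of 4), neurons (1 and 0 of 4) and testis (1 of 5 in both). The liver gene called was Alb in replicate 1 and Apoa1 in replicate 2.

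The sequences below were chosen because the values turn on them. They cover the highest-scoring head-to-head pair of each replicate, 2 pairs that are copies of each other and had no peak, a strong H4 promoter, an H1 promoter and the promoter of a testis histone gene. All were read from GRCm38.p6, the build called mm10, and run 5′ to 3′. Capitals mark, on either strand, the CCAAT box (CCAAT), the TATA box (TATAAA), the octamer (ATTTGCAT), the H1 box (AAACACA), the E2F-type site (TTTGGCGC, and also TTTCGCGC), the GC box (GGGCGG) and the cyclic AMP element (TGACGTCA). None of these words contains another, although matches may share bases.

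The stretch between the starts of Hist1h2ac (minus strand) and Hist1h2bc (plus strand), chr13:23683949-23684198, plus strand, held the letters CCAAT 3 times and ATTTGCAT once:
Hist1h2ac to Hist1h2bc: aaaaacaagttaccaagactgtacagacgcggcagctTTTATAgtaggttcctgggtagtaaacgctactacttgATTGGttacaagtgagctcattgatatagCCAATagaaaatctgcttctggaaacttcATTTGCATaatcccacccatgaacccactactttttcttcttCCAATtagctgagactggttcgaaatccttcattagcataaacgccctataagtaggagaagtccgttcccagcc

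The stretch between Hist2h2ac (minus strand) and Hist2h2be (plus strand), chr3:96220881-96221118, plus strand, held the same 2 motifs as often:
Hist2h2ac to Hist2h2be: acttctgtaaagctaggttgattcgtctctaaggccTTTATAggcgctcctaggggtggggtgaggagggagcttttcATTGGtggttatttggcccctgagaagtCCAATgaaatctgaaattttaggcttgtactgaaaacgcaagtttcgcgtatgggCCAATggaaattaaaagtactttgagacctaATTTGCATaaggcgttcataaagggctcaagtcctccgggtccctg

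The pair Hist1h2bq and Hist1h2ao (chr13:21810198-21810464, plus strand) and the pair Hist1h2ap and Hist1h2br (chr13:21833508-21833742, minus strand) lie in inverted orientation. All 235 bases of the shorter stretch are present without a change in the longer one, which has 267:
Hist1h2bq to Hist1h2ao: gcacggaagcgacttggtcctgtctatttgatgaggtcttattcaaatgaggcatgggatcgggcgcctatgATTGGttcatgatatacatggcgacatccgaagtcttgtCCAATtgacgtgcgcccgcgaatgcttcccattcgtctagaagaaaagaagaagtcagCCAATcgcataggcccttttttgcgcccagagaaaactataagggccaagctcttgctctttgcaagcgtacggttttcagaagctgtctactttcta
Hist1h2br to Hist1h2ap: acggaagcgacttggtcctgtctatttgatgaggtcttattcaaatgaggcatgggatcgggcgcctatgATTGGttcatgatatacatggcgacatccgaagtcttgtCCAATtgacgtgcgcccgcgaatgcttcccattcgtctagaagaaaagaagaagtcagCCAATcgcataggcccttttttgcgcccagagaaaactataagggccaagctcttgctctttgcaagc

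The 250 bases before the start of Hist1h4c (chr13:23698455-23698704, minus strand), of Hist1h1e (chr13:23622559-23622808, minus strand) and of Hist1h2ba (chr13:23934157-23934406, minus strand) show an H4, an H1 and a testis H2B promoter:
Hist1h4c: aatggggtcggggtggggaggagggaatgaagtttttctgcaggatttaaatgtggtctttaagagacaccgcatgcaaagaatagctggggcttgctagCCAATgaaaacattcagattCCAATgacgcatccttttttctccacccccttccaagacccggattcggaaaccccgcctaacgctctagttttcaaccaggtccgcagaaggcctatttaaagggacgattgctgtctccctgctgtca
Hist1h1e: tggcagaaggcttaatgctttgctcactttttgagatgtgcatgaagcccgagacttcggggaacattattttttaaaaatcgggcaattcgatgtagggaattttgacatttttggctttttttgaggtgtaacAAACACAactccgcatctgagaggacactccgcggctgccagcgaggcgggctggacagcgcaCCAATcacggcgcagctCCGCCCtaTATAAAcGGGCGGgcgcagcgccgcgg
Hist1h2ba: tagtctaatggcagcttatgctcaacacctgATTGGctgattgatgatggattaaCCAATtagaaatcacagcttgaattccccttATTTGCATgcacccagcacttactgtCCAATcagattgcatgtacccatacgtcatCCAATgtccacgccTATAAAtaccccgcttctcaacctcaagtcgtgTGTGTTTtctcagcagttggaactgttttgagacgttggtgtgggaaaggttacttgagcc

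Most histone genes had open chromatin at their start. A peak lay within 1000 bp of a start at 61 of 67 genes in replicate 1 (91.0%, 95% Wilson interval 81.8 to 95.8) and at 55 of 67 in replicate 2 (82.1%, 71.3 to 89.4). The same call was made for 63.6% and 49.0% of all protein-coding genes. All 55 genes called in replicate 2 were also called in replicate 1, as were 10731 of the 10758 called among all genes, so this nesting is that of the lists. Calls in both lists were made at 55 of 67 histone genes and at 48.9% of all genes. The intervals cover counting error only, and head-to-head genes share peaks: the 61 called genes had 48 distinct highest-scoring peaks in replicate 1, and the 55 had 44 in replicate 2. Hotspots gave 61 and 54 genes, where 64.3% and 49.3% of all genes had one. In the narrower window from 250 bp before to 50 bp after the start, 55 and 47 histone genes had a peak, against 47.0% and 34.0% of all genes.

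The peaks also ranked high. The median of the highest promoter score over called histone genes was 145 in replicate 1 and 54 in replicate 2, where all called genes had medians of 135 and 47. Of the called histone genes, 50 of 61 and 45 of 55 lay above those all-gene medians. By percentile among all genes with a promoter peak, the median histone gene stood at 83.8 in replicate 1 and 74.2 in replicate 2. The hotspot over the start had reached the deposited ceiling of 100 (−log10 q) at 59 of 61 histone genes in replicate 1 and at 24 of 54 in replicate 2. That was close to the background, since 92.5% and 46.8% of all genes with a hotspot were at the ceiling.

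**Figure D1:**
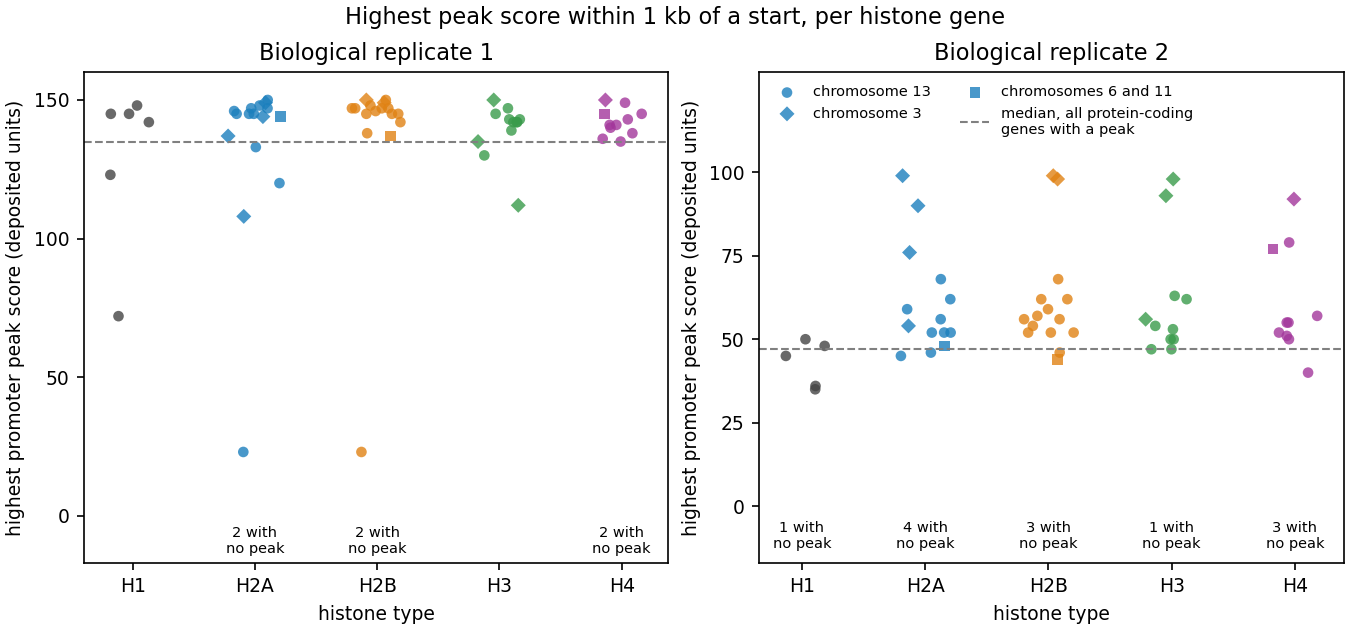
Highest peak score within 1000 bp of a start for each histone gene (points, grouped by histone type on the x axis and marked by chromosome), in the authors' score units, with 1 panel per biological replicate. The dashed line is the median over all protein-coding genes with a promoter peak (135 and 47). In replicate 2 the diamonds of chromosome 3 hold 7 of the scores from 90 to 99 and every other histone gene lies at 79 or below.

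The linker histone genes, whose products bind DNA between nucleosomes, had promoter peaks at 6 of 6 genes in replicate 1 and at 5 of 6 in replicate 2. The somatic Hist1h1a scored 145 in replicate 1 and 45 in replicate 2. Hist1h1c, another somatic H1, scored 145 and 48. Hist1h1e scored 142 and 36. These 3 genes were called in both lists, and the H1 median of 45 in replicate 2 lay below the all-gene median of 47. Hist1h1b scored 123 in replicate 1 and had no replicate 2 peak nearer than 4906 bp. Hist1h1d had the lowest H1 scores, 72 and 35, with its highest-scoring peaks centred at −911 and −891 bp from the GENCODE start. The RefSeq start of Hist1h1d lies 1770 bp downstream of the GENCODE start, and a replicate 1 peak of score 136 is centred 19 bp from it (chr13:23554976-23555125). The nearest replicate 2 peak to that RefSeq start scored 25 and was centred at −381 bp from it. The highest replicate 2 peak within 1000 bp of it scored 54 and was centred 919 bp downstream. In replicate 1 the low score of Hist1h1d therefore holds for the GENCODE start only. In replicate 2 no high-scoring peak lay close to either start.

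Hist1h1t encodes the testis H1. It scored 148 and 50, but its highest-scoring peaks were centred 557 and 697 bp downstream of the start, within the gene's 912 bp. In the window from 250 bp before to 50 bp after the start, it had a peak of score 93 in replicate 1 and none in replicate 2.

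H2A genes, whose products pair with H2B, were called at 16 of 18 in replicate 1 and at 14 of 18 in replicate 2. The highest scores in replicate 2 were 99 for Hist2h2ac, 90 for Hist2h2ab and 76 for Hist2h2aa1, all on chromosome 3. In replicate 1 these 3 genes scored 149, 144 and 137. At the low end of the called H2A genes in replicate 1 were Hist1h2aa (23), Hist2h2aa2 (108) and Hist1h2ab (120). Of these, Hist2h2aa2 scored 54 and Hist1h2ab 45 in replicate 2, and Hist1h2aa, a testis H2A, had no peak there.

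H2B genes were called at 16 of 18 in replicate 1 and at 15 of 18 in replicate 2. Hist2h2be scored 149 and 99, Hist2h2bb 150 and 98, and Hist1h2bc 150 and 68. The lowest called H2B genes in replicate 1 were Hist1h2ba (23), Hist3h2ba (137) and Hist1h2bm (138). Hist3h2ba scored 44 and Hist1h2bm 57 in replicate 2. Apart from the testis gene Hist1h2ba, every called H2B gene reached at least 137 in replicate 1.

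Hist1h2be, named here after its values were seen, has its GENCODE start inside the Hist1h1e gene, and RefSeq lists a second start at chr13:23585970. Peaks within 1000 bp of that second start scored up to 139 and 48, centred at −81 bp from it in both replicates.

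H3 genes, whose products form the centre of the nucleosome with H4, were called at 12 of 12 in replicate 1 and at 11 of 12 in replicate 2. Hist2h3b scored 150 and 98, Hist2h3c2 135 and 93, and Hist1h3g 142 and 63. For Hist2h3b and Hist2h3c2 the highest-scoring peaks lay 856 to 977 bp downstream of the start. Those of Hist2h3b are the same peaks as given for Hist2h2bb, centred at −121 and −181 bp from the Hist2h2bb start. From 250 bp before to 50 bp after its own start, Hist2h3b had peaks of 147 and 97. The lowest scores in replicate 1 were 112 for Hist2h3c1, 130 for Hist1h3i and 135 for Hist2h3c2. Hist1h3i had no replicate 2 peak nearer than 2161 bp.

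H4 genes were called at 11 of 13 in replicate 1 and at 10 of 13 in replicate 2. Hist2h4 scored 150 and 92, Hist1h4c 149 and 79, and Hist4h4, the lone histone gene of chromosome 6, 145 and 77. The lowest called H4 genes in replicate 1 were Hist1h4j (135), Hist1h4k (136) and Hist1h4i (138). In replicate 2 these scored 52, 40 and 50. The H4 scores in replicate 1 thus ran from 135 to 150 with no low outlier.

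Of the 12 genes with no promoter peak in replicate 2, 6 had one in replicate 1. They were Hist1h4h (140), Hist1h2af (133), Hist1h3i (130), Hist1h1b (123), and the testis pair Hist1h2ba and Hist1h2aa (23 each, from 1 shared peak). The nearest replicate 2 peak was 1285 bp from the start of Hist1h2af, 4141 bp from Hist1h4h, and 20165 and 20471 bp from the starts of the testis pair. The shared replicate 1 peak of the testis pair was centred 105 bp inside Hist1h2ba and was not between the 2 starts. The testis pair's score of 23 stood at the 0.899 percentile among genes with a promoter peak. Replicate 1 held more peaks overall (304049 against 106591), and the part of that difference in these 6 genes was not tested.

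No peak in either list lay within 1000 bp of the remaining 6 genes: Hist1h2bq and Hist1h2br (H2B), Hist1h2ao and Hist1h2ap (H2A), and Hist1h4m and Hist1h4n (H4). They form a set of inverted copies at chr13:21806612-21837530. Their nearest peaks were 9405 to 12594 bp away in replicate 1 and 9285 to 12714 bp away in replicate 2. Of the 32-base words in their promoters, 0% were single-copy in the genome for the H2A and H2B genes and 5.58% for both H4 genes. Reads from such sequence match more than 1 place, and the labels do not say how the authors treated those reads. Absence of a peak at these 6 genes therefore cannot be told apart from absence of assignable reads.

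All 55 histone genes with at least 90% single-copy words had a peak in replicate 1, and 49 of them in replicate 2. Among all protein-coding genes of that class, 69.6% and 54.3% were called. Between 10% and 90% lay Hist1h4j, Hist1h4k, Hist2h3c2, Hist2h2aa2, Hist2h2aa1 and Hist2h3c1, and all 6 were called in both lists. The class as a whole was called at 36.2% and 23.0% of 2323 genes. Below 10%, the call was made at 3.65% and 1.95% of 822 genes and at none of the 6 histone genes. The 4 chromosome 3 genes of the middle class had no peak from 250 bp before to 50 bp after their start in either list. Their highest-scoring peaks were centred 346 to 956 bp from the start.

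**Figure D2:**
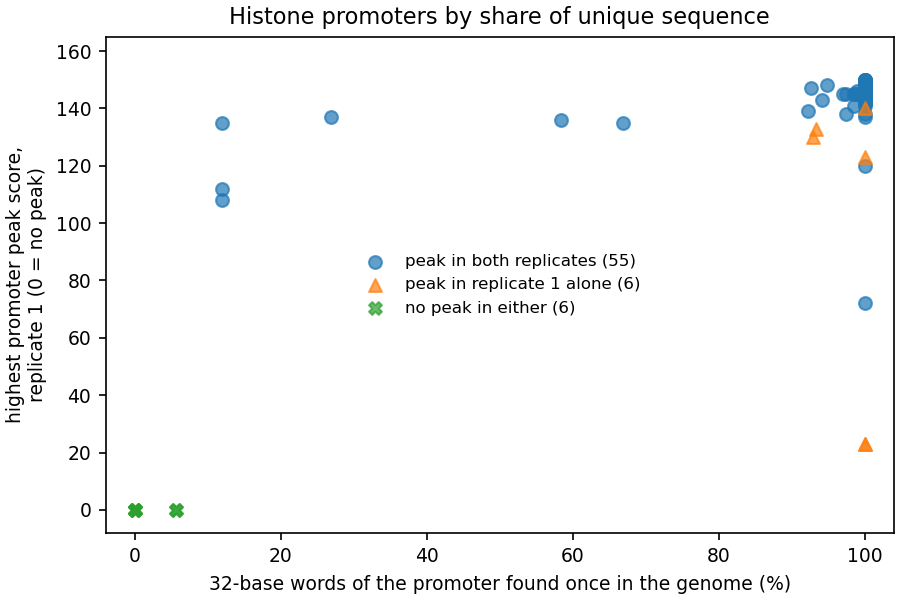
Share of 32-base words in the promoter of each histone gene that occur once in the genome (x axis, percent) against its highest promoter score in replicate 1 (y axis, 0 drawn for no peak), with symbols for the lists that called the gene. The 6 genes with no peak lie between 0% and 5.58%, and the 6 called in replicate 1 alone lie above 90%.

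Peaks sat just upstream of the GENCODE starts of histone genes. The highest-scoring promoter peak was centred within the 250 bp upstream of the start at 73.8% of called histone genes in replicate 1 and 69.1% in replicate 2, against 55.1% and 40.0% of all called genes. By type the share in replicate 1 was 93.8% for H2B, 81.8% for H4, 81.2% for H2A, 58.3% for H3 and 16.7% for H1. In replicate 2 it was 80.0%, 80.0%, 71.4%, 54.5% and 40.0% in the same order. The H1 values stand for 1 of 6 and 2 of 5 genes. Head-to-head H2A and H2B starts lie at most 306 bp apart, so 1 peak between them can count as upstream for both genes. Both genes of such a pair enter these shares and the peak cover below. Peak cover was highest 90 bp upstream in both lists, where 75.4% of called histone genes were covered in replicate 1 and 65.5% in replicate 2. Over other called genes it was highest at 50 bp upstream in replicate 1 (52.0%) and at 40 bp upstream in replicate 2 (35.7%). RefSeq starts lay further upstream at some histone genes (by 85 bp at Hist1h2ak and 75 bp at Hist1h2ah). At others they lay downstream (by 81 bp at Hist1h3c and 78 bp at Hist1h3b). Cover around RefSeq starts was not tested. At 250 bp downstream, within most histone genes, cover was 4.92% in replicate 1 and 1.82% in replicate 2, and 15.2% and 24.1% at other genes. It was higher again at 500 bp downstream, with 39.3% and 36.4% of histone genes and 17.6% and 18.5% of other genes covered. The median histone gene is 539 bp long, so that position lies near its end, and the median over all protein-coding genes is 17425 bp. At many histone genes, single-copy words were rarer over 1000 bp either side of the start than in the promoter (54.7% against 100% at Hist1h2bf). Hist1h4j went the other way (80.8% against 66.9%). The part of multi-copy sequence in the low cover inside histone genes was not tested.

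**Figure D3:**
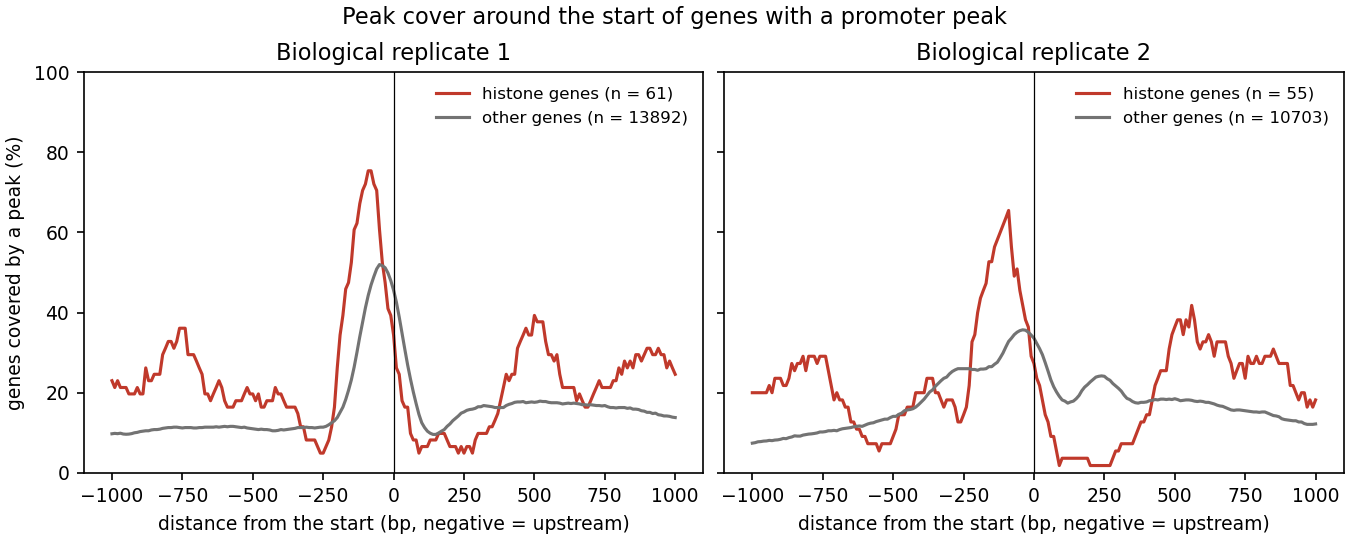
Share of genes with a promoter peak that are covered by a peak (y axis, percent) at each distance from the GENCODE start (x axis, bp, negative upstream). Lines are for histone genes and for other protein-coding genes, with 1 panel per replicate. The histone line is highest 90 bp upstream (75.4% and 65.5%), falls to 4.92% and 1.82% at 250 bp downstream and is higher again at 500 bp downstream. The part of multi-copy sequence in that fall was not tested.

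Most head-to-head histone pairs had a peak between their starts. Head-to-head pairs of other genes were not counted, so no background share stands beside the counts below. The histone genes hold 13 pairs that read away from each other with starts at most 1000 bp apart, 12 of H2A with H2B and 1 of Hist1h2bh with Hist1h3f. Their starts were 176 to 660 bp apart (median 268 bp). A peak was centred between the starts in 10 pairs in replicate 1 and in 9 in replicate 2. The 3 without one in replicate 1 were the copies Hist1h2bq/Hist1h2ao and Hist1h2ap/Hist1h2br and the testis pair. Both genes had the same highest-scoring peak in 11 pairs in replicate 1 and in 10 in replicate 2. The windows of 1000 bp around such close starts largely coincide, so these counts say little about sharing. They also include shared peaks that were not between the starts, for the testis pair in replicate 1 and Hist1h2bh/Hist1h3f in replicate 2. Scores between the starts ran from 145 to 150 in replicate 1 and from 46 to 99 in replicate 2. The pair printed first above, Hist1h2ac/Hist1h2bc, was highest in replicate 1 at 150, and Hist2h2ac/Hist2h2be was highest in replicate 2 at 99.

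The histone promoters also differed from other promoters in sequence, which the selection did not use. In the 300 bases from 250 before to 50 after 1 start per gene, 83.6% of histone genes held the letters CCAAT on either strand, against 38.9% of all protein-coding genes. The count was 18 of 18 for H2A, 18 of 18 for H2B, 11 of 12 for H3, 5 of 6 for H1 and 4 of 13 for H4. TATAAA was present at 55.2% of histone genes and 12.6% of all genes. The octamer ATTTGCAT, known as a binding sequence of POU2F1 in H2B promoters, was present at 8 H2B and 7 H2A genes and at no H1, H3 or H4 gene (22.4% of histone genes, 1.58% of all). AAACACA, known as the H1 box, was present at 4 of 6 H1 genes, and at 13.4% of histone genes against 6.46% of all genes. Letters of the E2F type were found at 13.4% and 1.03%, in H2A and H2B genes only. GGGCGG was present at 41.8% of histone genes and 43.9% of all genes in this window, and at 67.2% and 50.3% from 500 bp before to 100 bp after the start. It was most frequent in H4 in the shorter window (10 of 13). TGACGTCA was present at 5.97% and 2.43%. Genes of a head-to-head pair share much of this window, so their matches are not separate. A match is a description of letters and not of a bound site: the pair of copies with no peak held CCAAT 3 times, as often as the printed pairs with the highest scores, and the testis gene Hist1h2ba held it 4 times in its 250 bases. The median G and C content was 45.3% for histone promoters and 55.3% for all, while the ratio of observed to expected CpG was 0.75 and 0.536.

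The genes fall into 7 groups when runs of histone genes are split at gaps over 100 kb. The largest, on chromosome 13 (chr13:23531050-23764406), holds 29 genes, all 29 called in replicate 1 and 27 in replicate 2. The first on that chromosome (chr13:21715763-21837530) holds 18, of which 12 and 10 were called, and includes the 6 copies without a peak. A small group (chr13:22035164-22043676) holds 5 genes, all called in both lists, and the testis pair (chr13:23933773-23934851) stands alone. The chromosome 3 group (chr3:96219865-96270132) holds 10 genes, all called in both lists. Hist3h2a and Hist3h2ba make up the chromosome 11 group (chr11:58948920-58956830), and Hist4h4 (chr6:136801553-136804415) stands alone. Hist3h2a scored 144 and 48, the same values as Trim17, whose start shares its peaks.

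Chromosome 3 genes ranked highest in replicate 2. Their median highest score was 146.5 in replicate 1 and 92.5 in replicate 2, against 145 and 52 for the histone genes of chromosome 13. That put the median chromosome 3 gene at the 99.7 percentile of called genes in replicate 2. The 59 other protein-coding genes within 1 Mb of the group were also high, with medians of 148 and 80 and with 84.7% and 78.0% called. High scores around chromosome 3 histone genes were thus shared with their neighbours, and the part of the surroundings in the values of the histone genes was not tested. Around the 29-gene group of chromosome 13 the neighbours had lower medians than the histone genes. Within 1 Mb of the 29-gene group, 48.6% and 18.9% of 37 other genes were called, with medians of 99.5 and 43, and the histone genes there had medians of 145 and 54. The testis pair ran the other way, at 23 in replicate 1 beside a neighbour median of 124.5, and uncalled in replicate 2 where 31.2% of the neighbours were called. Hist4h4 scored 145 and 77 beside neighbour medians of 127.5 and 50.

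Open chromatin was also dense between the genes. The 7 groups held 312 peaks in replicate 1 and 186 in replicate 2, of which 166 and 64 lay over 1000 bp from any GENCODE histone gene start. That made 49.8 and 19.2 peaks per 100 kb of such sequence, against 11.1 and 3.9 over the genome. Peaks described above at the RefSeq start of Hist1h1d and at the second RefSeq start of Hist1h2be are counted here as between genes. Among the 3 largest groups, the chromosome 3 group had 94.1 and 35.0 per 100 kb, the 29-gene group 48.2 and 18.6, and the 18-gene group 32.9 and 15.4. The other groups hold at most 4909 bp of such sequence each, and no rate was taken for them. Of the 166 peaks of replicate 1, 4 lay at the promoter of another gene, and 36 (21.7%) overlapped a replicate 2 peak, near the 23.6% for all replicate 1 peaks. At the histone promoters, 59.4% of 155 replicate 1 peaks overlapped a replicate 2 peak, and 72.5% of 131 replicate 2 peaks overlapped a replicate 1 peak, against 41.9% and 63.4% at all promoters.

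The highest-scoring replicate 1 peak between genes had a score of 148, and the replicate 2 peak that overlaps it scored 69. It lies at chr13:23716436-23716585, 18057 bp from the start of Hist1h4c and outside annotated protein-coding genes, and its sequence on the plus strand is printed with the same capitals:
highest replicate 1 peak between genes: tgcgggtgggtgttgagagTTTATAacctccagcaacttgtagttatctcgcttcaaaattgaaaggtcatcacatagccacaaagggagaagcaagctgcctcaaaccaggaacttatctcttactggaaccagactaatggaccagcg

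On chromosome 3 the highest-scoring replicate 1 peak between genes lay at chr3:96226856-96227005, 5812 bp from the start of Hist2h2be, with scores of 145 and 78. A peak 1992 bp from that start, within the annotated Hist2h2be gene, scored 142 and 87, and 87 was the highest between-gene score of replicate 2. Among other protein-coding genes within the groups, Hfe, an iron-regulating gene inside the 29-gene group, had a score of 127 in replicate 1 but was not called in replicate 2.

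**Figure D4:**
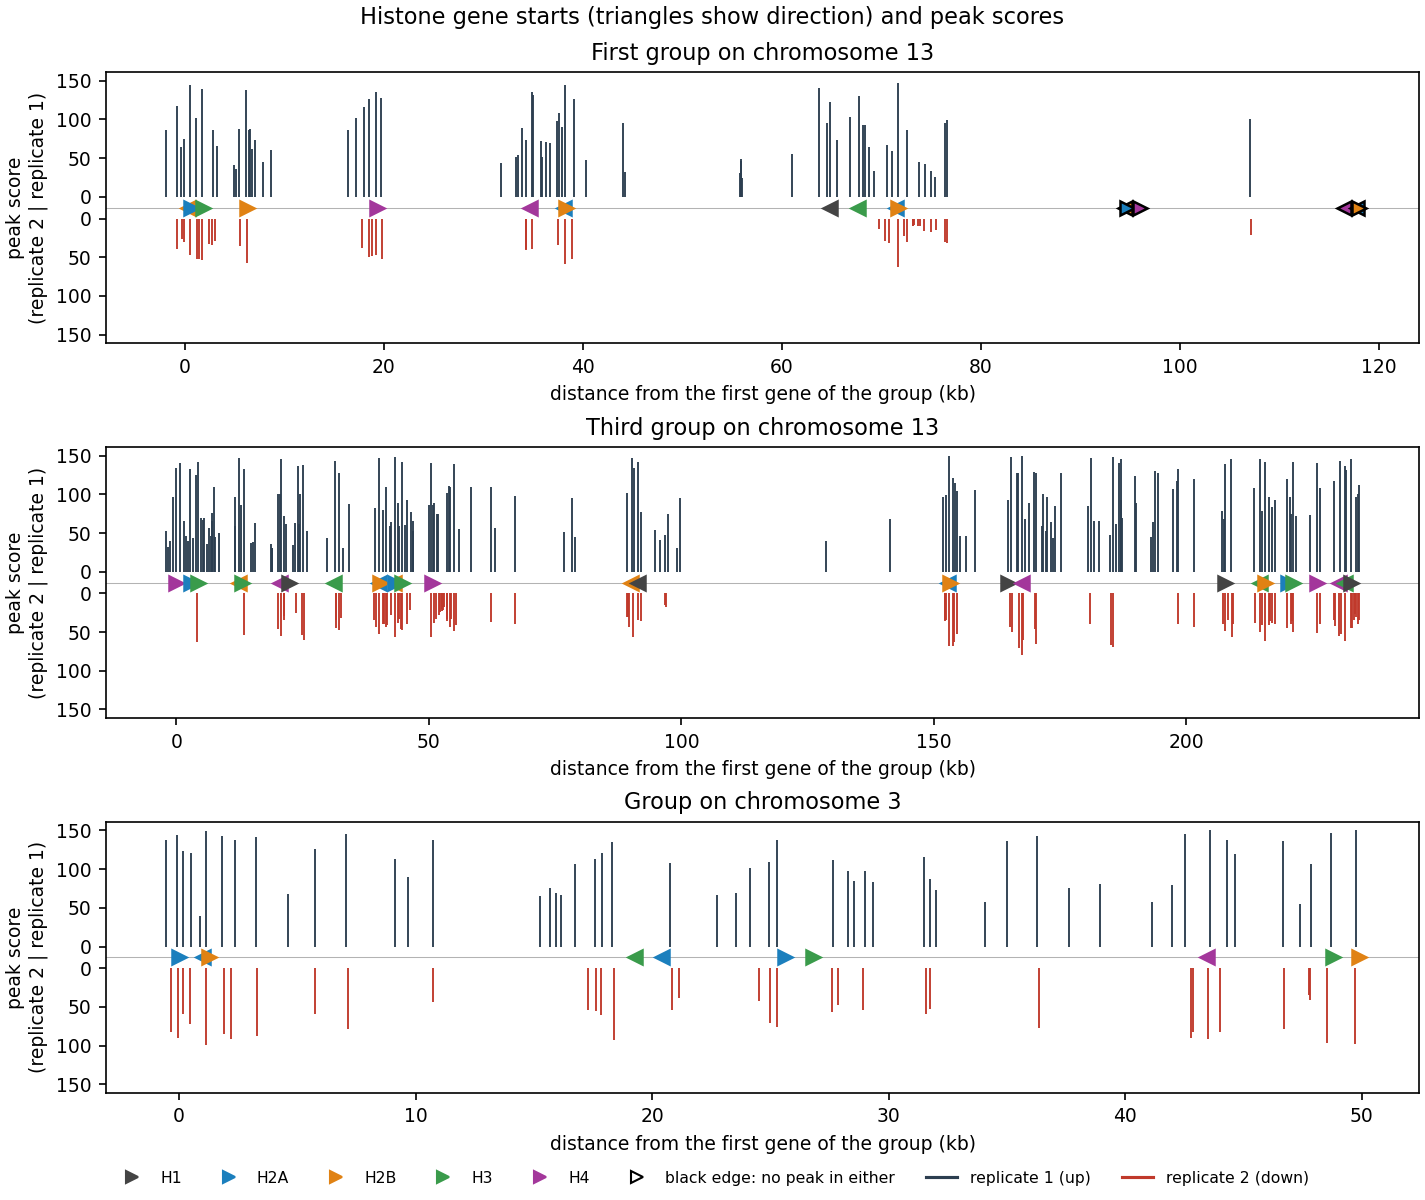
Peak scores (y axis, replicate 1 drawn upwards and replicate 2 downwards, authors' units) along 3 groups of histone genes (x axis, kb from the first gene), with triangles for gene starts coloured by type and pointing in the direction of transcription. The 6 triangles with a black edge in the top map have no peak in either replicate, and the bottom map shows the replicate 2 scores of up to 99 on chromosome 3.

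The chromosome 13 groups are set apart by sequence of other kinds. Between the 5-gene and the 29-gene groups lie 36 vomeronasal receptor genes of the Vmn1r family, of which 8 were called in replicate 1 and 2 in replicate 2, and 46 tRNA genes. This gap had 15.9 and 9.01 peaks per 100 kb, and 64 of 237 and 48 of 134 peaks lay within 250 bp of a tRNA gene. The gap between the 18-gene and 5-gene groups holds 31 tRNA genes and had 57.2 and 44.0 peaks per 100 kb. There, 47 of 113 and 45 of 87 peaks lay within 250 bp of a tRNA gene. The gap between the 29-gene group and the testis pair holds no tRNA or Vmn1r gene and had 28.3 and 9.45 peaks per 100 kb. No tRNA gene of the reference lies inside a histone group.

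Genes that act on histone transcripts and proteins were counted in the same way, beside the 63.6% and 49.0% of all genes called. Of 25 genes of the histone locus body, of histone gene transcription and of 3′ end processing, promoter peaks were called at 25 in replicate 1 and at 23 in replicate 2. Npat, the coactivator of histone genes, scored 149 and 51, and Slbp, which binds the stem-loop of histone transcripts, 148 and 74. Cpsf3, the nuclease that cuts the transcripts (131), and Ccne2, a cyclin that activates CDK2 (140), had no peak in replicate 2. Their median scores over called genes, 140 and 48, were close to the all-gene medians of 135 and 47.

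Replacement histone genes, which are expressed outside DNA replication too, were called at 11 of 14 in replicate 1 (78.6%) and at 8 of 14 in replicate 2 (57.1%), the latter near the share of all genes. H2afy2, which encodes a macroH2A, and the germ-line linker genes Hils1 and H1fnt had no peak in either list. H3f3a (130), which encodes H3.3, H1fx (84) and the oocyte linker gene H1foo (51) had one in replicate 1 only. H3f3b, the other H3.3 gene, scored 149 and 44. Histone chaperones, which carry histones to and from DNA, were called at 11 of 11 and 8 of 11 (72.7%). Nap1l1 (142), Supt16 (135) and Daxx (146) were called in replicate 1 only.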

How the data were processed

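DNase-seq was run on 3 libraries of 1 treated group. Per the labels and the deposited text records, reads were aligned to mm10 and peaks and hotspots were called from 1 alignment per biological replicate; both replicate 1 records, and not the replicate 2 record, name the alignment used for the lists of the whole series. The aligner, the peak caller, filters and handling of multi-mapping reads were not given in the sources used here. The peak score is a deposited value of the authors, and the hotspot value is a deposited −log10 q of the authors, running from 1.3 to 100.

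Genes and starts came from GENCODE mouse release 21, and sequence from GRCm38.p6; positions are 1-based. Peaks were assigned to genes when at least 1 bp lay within 1000 bp of any start. Single-copy words were counted over 21 chromosomes and both strands. RefSeq starts (GRCm38.p6 table) matched 62 of 67 genes. Python 3.11.15, numpy 2.4.6 and pandas 2.3.3 were used, and the overlap and word-count code was tested on simulated data. No test across samples was possible.

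The members and lists were chosen with earlier results of these data known. Named genes were all H1 genes, the testis genes, all genes outside chromosome 13, per core type the 3 highest in replicate 2 and the 3 lowest in replicate 1, and every gene without a peak in a replicate. Alternatives varied the window, the starts, the peak threshold, hotspots in place of peaks, the overlap, the gap between groups and the motif window. Identity between proteins was not analysed here.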

Additional observations from a re-analysis of the deposited data

How the results depend on the processing

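The number of histone genes with a promoter peak stayed between 55 and 61 in replicate 1 and between 47 and 56 in replicate 2 under the windows, starts, thresholds and hotspot calls tried. The window from 250 bp before to 50 bp after the start and the RefSeq starts were chosen after seeing the data. Only genes with a matched RefSeq start could be called at RefSeq starts, and the genes lost there were those without one. The testis pair Hist1h2ba/Hist1h2aa was lost when only the highest-scoring 50% of peaks, or equally long lists, were kept. When peaks had to overlap by 50% of their width, the shared promoter peaks fell to 42.6% of replicate 1 and 51.9% of replicate 2, since the criterion is stricter. At all promoters the shares fell likewise, from 41.9% and 63.4% to 29.3% and 42.9%. With gaps of up to 2 Mb allowed within a group, the peaks between genes numbered 558 and 295, because the gaps of chromosome 13 then lie inside 1 group. In the window from 500 bp before to 100 bp after the start, GGGCGG was present at 67.2% of histone genes and 50.3% of all genes, where the shorter window gave 41.8% and 43.9%; the cause was not tested. No paired analysis was possible because there is 1 group. Depth is unknown, so a missing peak is not shown to be closed chromatin.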

Other observations

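The highest-scoring replicate 1 peak between histone genes holds the letters TTATCT, the reverse complement of AGATAA, the core of the sequence that GATA1 binds. The letters were looked for after that sequence had been seen. Of the replicate 1 peaks between histone genes, 18 of 166 (10.8%) held AGATAA on either strand, near the 9.52% of all replicate 1 peaks. Within 1000 bp of a histone gene start, taking only peaks inside the groups, the count was 10 of 146 (6.85%). In replicate 2 the counts, taken in the same way, were 6 of 64 (9.38%) between genes and 9 of 122 (7.38%) at starts. Of all replicate 2 peaks, 9.22% held the letters.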
